A study of Mus musculus with 20 samples.

Results

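The genes described here encode the proteins of the cytosolic ribosome, measured in DC2 cells, an immortalized line derived from principal cells of the mouse distal caput epididymis. They were chosen by symbol (Rpl or Rps followed by a number, with Rplp0, Rplp1, Rplp2 and Rpsa, and without the Rps6k kinases) and by a mean TPM of 1 or more in the abundance table. TPM is a level corrected for transcript length and scaled so that every library has the same total, so it is a share of the library. Of 90 matching symbols among the 21509 genes of each table, 85 reached this minimum in the flow experiment (50 large and 35 small subunit symbols) and 87 in the siRNA experiment (51 and 36), which made 88 genes in either and 84 in both. The 5 symbols left out in the flow experiment were Rpl10l, Rpl39l, Rps23rg1, Rpl3l and Rpl9-ps6, and the 3 in the siRNA experiment were Rpl10-ps3, Rpl3l and Rpl10l. Rps19bp1 matches by name but encodes a binding partner of a ribosomal protein and not a subunit. Fau and Rack1 encode ribosomal subunits under other names and were followed separately.

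DC2 cells in microfluidic channels were either placed for 3 hours under laminar flow that gave a shear of 1 dyn/cm2 (flow, 6 libraries) or left without flow (static, 6 libraries). In the second experiment, cells received siRNA against Ift88, whose product is needed to build the primary cilium (4 libraries), or a control siRNA (4 libraries). The study describes these cells as also under flow, which the sample labels do not state. Cells were synchronized in low-serum medium before flow. All libraries came from this cell line alone, with no second line and no primary cells. The library titled flow replicate 6 carries a static treatment label and was counted as flow.

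Each ribosome joins a small subunit, which reads the mRNA, to a large subunit, which forms the peptide bond, and each core protein is needed in a single copy, apart from the acidic proteins of the stalk. Most of their mRNAs begin with a run of pyrimidines, the 5′ terminal oligopyrimidine (TOP) tract, through which mTOR signalling and Larp1 set translation and stability of the whole class together. Several free subunits have further roles, among them Rpl5, Rpl11 and Rpl23, which bind Mdm2 and thereby hold back the degradation of p53.

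Runs of pyrimidines near the transcription starts were more frequent in the class than among all genes, and some members lacked them. Listed RefSeq starts (GRCm38.p6) were found for 65 of the 88 genes, and the longest uninterrupted run of C or T on the transcribed strand was searched from 20 bases before to 50 bases after the start. A run of at least 8 pyrimidines was present at 49 of the 65 genes, or 75.4%, beside 28.5% of all 27025 genes with a listed start and 26.7% of the 9057 of them expressed at 1 TPM or more in the flow experiment. The median longest run was 10 bases in the members and 6 bases in both larger sets. Members without a run of 8 include core subunits, among them Rplp0 and Rpsa (longest run 7 bases), Rpl22 (5) and Rps28 (4). Runs were counted anywhere in the searched stretch and need not be TOP tracts. In Rpl41 and Rps2 the run began 40 bases after the listed start. In the following 30-base windows capitals mark the longest run. The first 4 genes have 9 or 10 pyrimidines, and the last 2, a paralogue and a gene that is no subunit, have 3.
Rps6 (chr4:86857349-86857378, minus strand): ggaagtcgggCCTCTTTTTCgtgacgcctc
Rplp2 (chr7:141447636-141447665, plus strand): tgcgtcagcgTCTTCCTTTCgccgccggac
Rps27 (chr3:90213632-90213661, minus strand): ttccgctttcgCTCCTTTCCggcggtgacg
Rpl22l1 (chr3:28805499-28805528, plus strand): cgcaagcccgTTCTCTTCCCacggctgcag
Rpl7l1 (chr17:46782647-46782676, minus strand): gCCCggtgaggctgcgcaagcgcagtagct
Rps19bp1 (chr15:80264292-80264321, minus strand): cagggcggaagtagCTCgccgcgtgtgggc

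Before the results, the libraries were compared with their labels. Ift88 itself stood at 1.71, 1.27, 1.28 and 0.917 TPM in the 4 Ift88 siRNA libraries and at 4.21, 4.08, 4.15 and 4.12 TPM in the 4 control siRNA libraries, so the groups did not overlap. Among the markers of differentiated principal cells, Crisp1 and Defb42 were listed at 0 in every library and Aqp9 did not exceed 0.413 TPM. Markers of clear cells, basal cells and endothelium stayed at or under 1.5 TPM in all libraries. Of the fibroblast and smooth muscle markers the highest were Pdgfrb (up to 3.41 TPM) and Acta2 (up to 3.15 TPM). Of the leukocyte markers Ptprc did not exceed 0.0878 TPM and Cd3e was listed at 0 throughout, whereas Csf1r reached 1.34 TPM, Lyz2 3.08 TPM and Cd68 98.9 TPM. Replicates 5 and 6 of both flow groups stood apart from replicates 1 to 4 in the ribosomal protein share given next. The tables hold no read totals, so depth and counting error are unknown here.

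In the flow experiment, ribosomal protein mRNAs made up a large part of the transcripts in every library, with or without shear stress. Their summed share was 19.4, 19.9, 20.7, 19.6, 16.2 and 16.0% of TPM in flow replicates 1 to 6 and 20.6, 19.4, 20.01, 19.5, 17.3 and 17.2% in static replicates 1 to 6. The means were 18.6% ± 2.02 (SD, n = 6) under flow and 19.0% ± 1.40 (SD, n = 6) in static cells, a difference smaller than either SD. Replicates 5 and 6 had the lowest shares in both groups, and the remaining libraries of flow and static cells overlapped. The large subunit genes gave 11.3% ± 1.29 and 11.5% ± 0.889, and the small subunit genes 7.31% ± 0.737 and 7.47% ± 0.514 (flow and static, SD, n = 6), so the subunits kept nearly the same proportion in the 2 conditions. In bulk RNA such shares cannot tell fewer cells of a type from less RNA per cell, and a share of TPM is not an amount per cell.

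**Figure D1:**
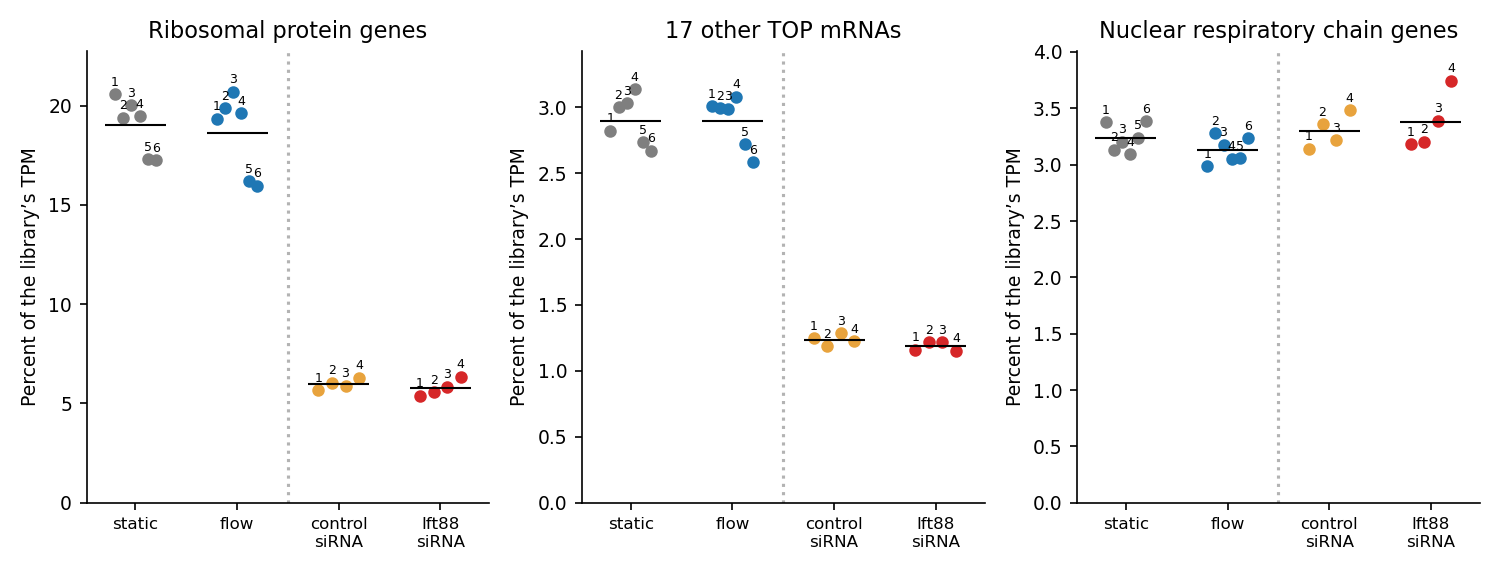
Percent of each library's TPM (y axis, from 0) held by the ribosomal protein genes, by 17 other TOP mRNAs and by nuclear-encoded respiratory chain genes, for static, flow, control siRNA and Ift88 siRNA libraries (x axis). Points are libraries with their replicate numbers, bars are group means, and the dotted line separates tables that were scaled separately; the ribosomal protein share is 16.0 to 20.7% on the left and 5.4 to 6.34% on the right, while the respiratory chain share lies between 2.99 and 3.75% on both sides.

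Within the flow experiment, the members spanned a wide range of levels although each core protein is needed in equal number. The median member stood at 1843 TPM, the quartiles around it were 1360 and 2593 TPM, and 73 of the 85 members exceeded 1000 TPM. Of the 100 most abundant genes in this table, 56 were members. The highest was Rpl41, a very small basic protein of the large subunit, with a mean of 8940 TPM, followed by Rplp1 (6233 TPM), Rps15 (5822 TPM), Rplp0 (5769 TPM) and Rps14 (5394 TPM). The lowest members were Rps18-ps6 (2.06 TPM), Rps27rt (17.3 TPM), Rps19bp1 (116 TPM), Rpl7l1 (138 TPM) and Rps20 (276 TPM). Of these 5, Rps20, a small subunit protein near the mRNA entry, was the only core subunit that is not a copy, a paralogue or a partner.

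Shear stress did not move any ribosomal protein gene past the test. In limma on log2(TPM + 1), 0 of the 85 members had an adjusted p under 0.05, where 12 of the 11388 genes tested did, all higher under flow (0.105%). None were lower (0%), and all 12 also exceeded 1.5-fold (0.105%). At an unadjusted p under 0.05 the count was again 0 of 85 higher and 0 of 85 lower, beside 2.05% of all genes higher and 1.79% lower. No member had flow and static libraries that did not overlap, beside 0.492% of all genes higher and 0.0527% lower. With the replicate number as a block, which compares same-numbered libraries, 0 members passed, while 73 genes did (0.641%); at an unadjusted p under 0.05 in that fit, 0 members were higher (3.94% of all genes) and 1 was lower (7.17% of all genes), namely Rpl22l1. Every other setting tried gave 0 members.

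The intervals bound how large a change these libraries could have missed. The median log2 fold change (flow minus static) of the members was -0.04, beside -0.03 for all genes tested and -0.01 for the 1639 genes that averaged 100 TPM or more. The members lay closely around it: 82 of 85 (96.5%) had an absolute log2 fold change under 0.1, beside 64.9% of all genes tested. The 95% interval of the fold change lay within 1.5-fold in either direction for 84 of the 85 members, beside 87.3% of all genes. The exception at 1.5-fold was Rps27rt. Point estimates were below 0 for 71 members (83.5%, beside 61.2% of all genes tested) and above 0 for 14, with a median of -0.04 in each subunit. This sign is not firm, since the median was near 0 without flow replicate 5 (-5.1e-06), turned to 0.01 without flow replicate 6, and turned to 0.04 with that library counted as static. It also depended on the scaling, at -0.0084 with median-of-ratios scaling and -0.0429 with TPM rescaled without the class.

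Apart from the copy Rps27rt, the member with the largest difference between flow and static cells on log2(TPM + 1) was Rpl22l1 (-0.14). The added 1 shrinks the value of the low copy Rps18-ps6, whose log2 ratio of mean TPM was -0.22. Rpl22l1, a paralogue of the RNA-binding large subunit protein Rpl22, ranged from 368 to 528 TPM under flow (median 456) and from 401 to 629 TPM in static cells (median 499). The groups overlapped, flow was lower in 5 of 6 same-numbered pairs, and the log2 fold change was -0.14 with a standard error of 0.12 (limma adjusted p 0.999; with the replicate block 0.392). Rps28, a small subunit protein at the mRNA exit, ranged from 3205 to 4209 TPM under flow and from 3681 to 4309 TPM without it. Its log2 fold change was -0.09 ± 0.08 (SE). Rpl36a, of the large subunit, gave a similar value, -0.09 ± 0.10 (SE). The copies Rps27rt (-0.96 ± 0.64) and Rps18-ps6 (-0.13 ± 0.17), described further on, completed the 5 lowest values.

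On the other side, Rpl7l1, a paralogue of Rpl7 with a role in ribosome assembly, ranged from 104 to 174 TPM under flow (median 140) and from 111 to 149 TPM in static cells (median 139). Its log2 fold change was 0.08 ± 0.12 (SE), and flow was higher in 5 of 6 same-numbered pairs. Next came Rps27l (0.04 ± 0.09), a p53-inducible paralogue of Rps27, then Rpsa (0.03 ± 0.08), which doubles as the laminin receptor precursor, Rps19bp1 (0.03 ± 0.09) and Rplp2 (0.03 ± 0.07). None of these passed the test, and in all of them the flow and static ranges overlapped.

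**Figure D2:**
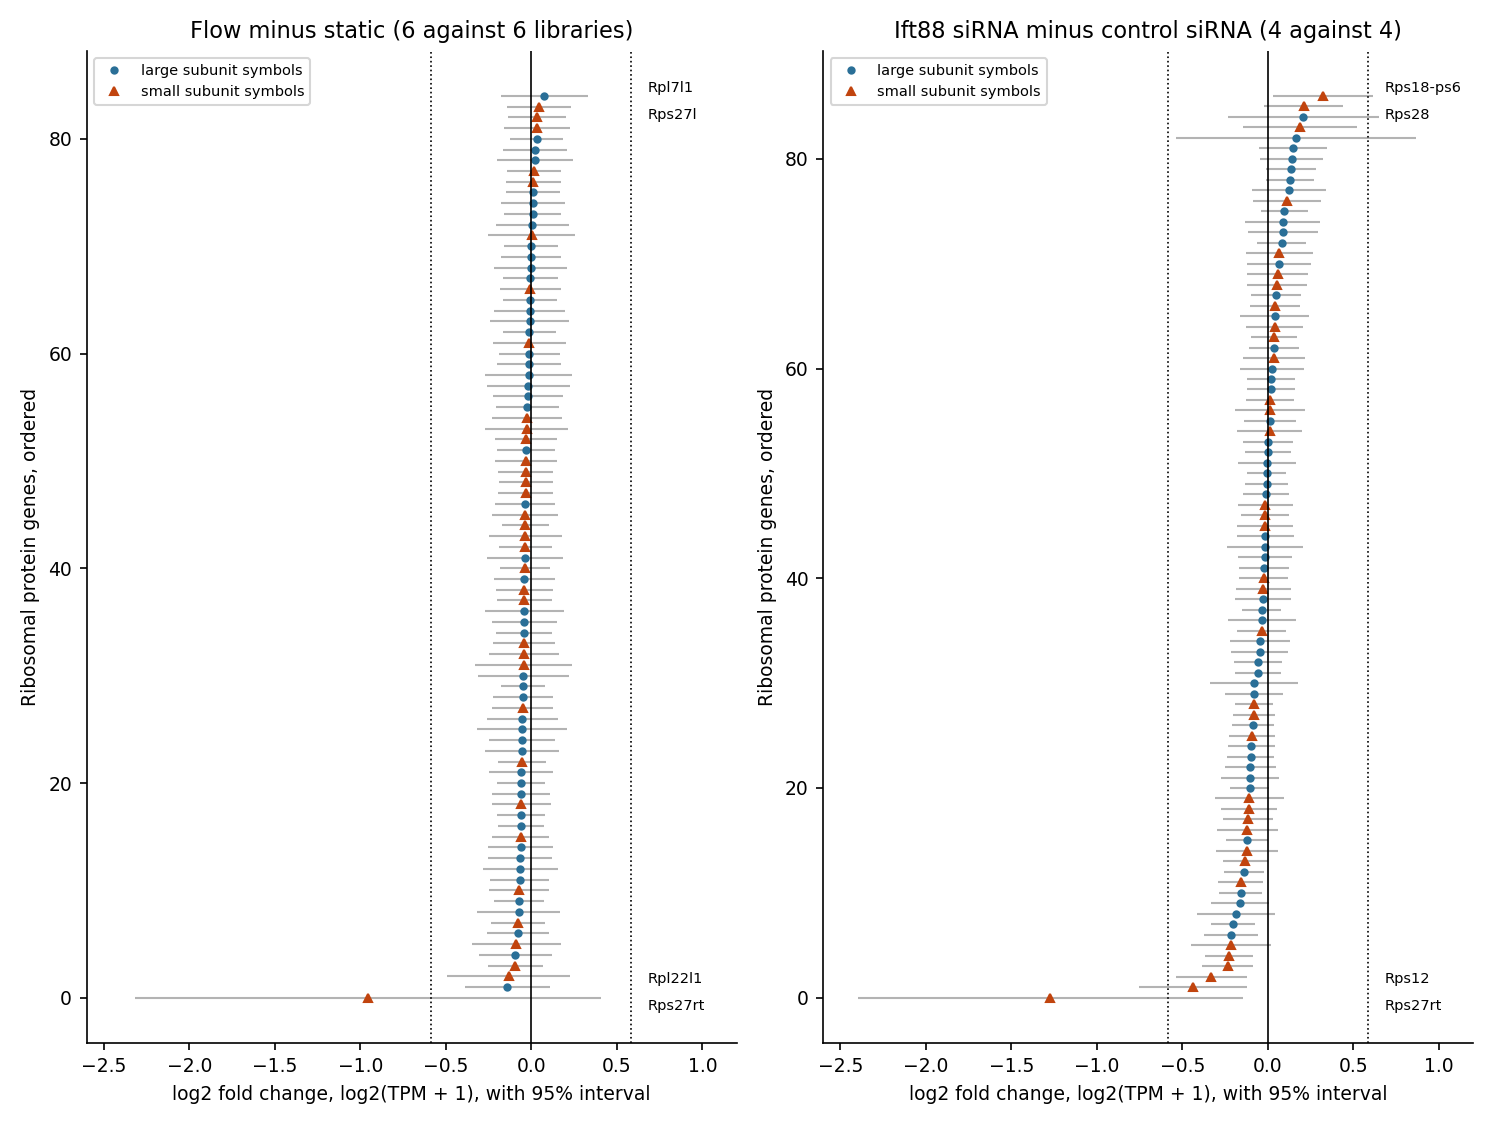
Log2 fold change of each ribosomal protein gene on log2(TPM + 1) (x axis), ordered by size (y axis), for flow minus static and for Ift88 siRNA minus control siRNA, with 95% intervals from limma. Circles are large and triangles small subunit symbols, and dotted lines mark 1.5-fold; under flow 84 of 85 intervals lie inside these lines, and after Ift88 siRNA 82 of 87. The lowest siRNA point, Rps27rt, is a fitted value for a gene listed at 0 in all Ift88 siRNA libraries and is not a measured fold.

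The stalk genes, the Mdm2 binders, Rps6 and Rps27a stayed with the rest. The stalk that recruits elongation factors is built on Rplp0, which ranged from 4966 to 6319 TPM under flow (median 5902) and from 5311 to 6221 TPM in static cells (median 5953). Its partner Rplp1 had medians of 6512 and 6417 TPM and Rplp2 of 1530 and 1495 TPM, again with overlapping ranges. Of the Mdm2 binders, Rpl5 had medians of 2239 TPM under flow and 2177 TPM without it (log2 fold change 0.01 ± 0.10, SE), Rpl11 of 2466 and 2379 TPM (0.02 ± 0.10), and Rpl23 of 1674 and 1710 TPM (-0.05 ± 0.08). Rps6, the substrate of S6 kinase, had medians of 2257 and 2313 TPM (-0.04 ± 0.07), and Rps27a, made as a fusion with ubiquitin, of 1852 and 1880 TPM (-0.03 ± 0.09). The 95% intervals of these 8 genes lay between -0.23 and 0.24 on the log2 scale.

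Same-numbered flow and static libraries differed more by pair than by condition. The members higher under flow numbered 25, 56, 67, 50, 5 and 8 of 85 in pairs 1 to 6, with median log2 differences of -0.08, 0.02, 0.05, 0.02, -0.11 and -0.10. In the same pairs the median over all genes tested was 0.09, 0.01, -0.08, -0.05, -0.01 and -0.09. Pairs 2, 3 and 4 thus had most members higher under flow and pairs 1, 5 and 6 most members lower. Without replicates 5 and 6, an alternative added after the data were seen, the median log2 fold change was -0.0015, with 0 members past the test. Centring each library on its own member median lowered the median SD between libraries of a group from 0.14 to 0.07 on the log2 scale.

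**Figure D3:**
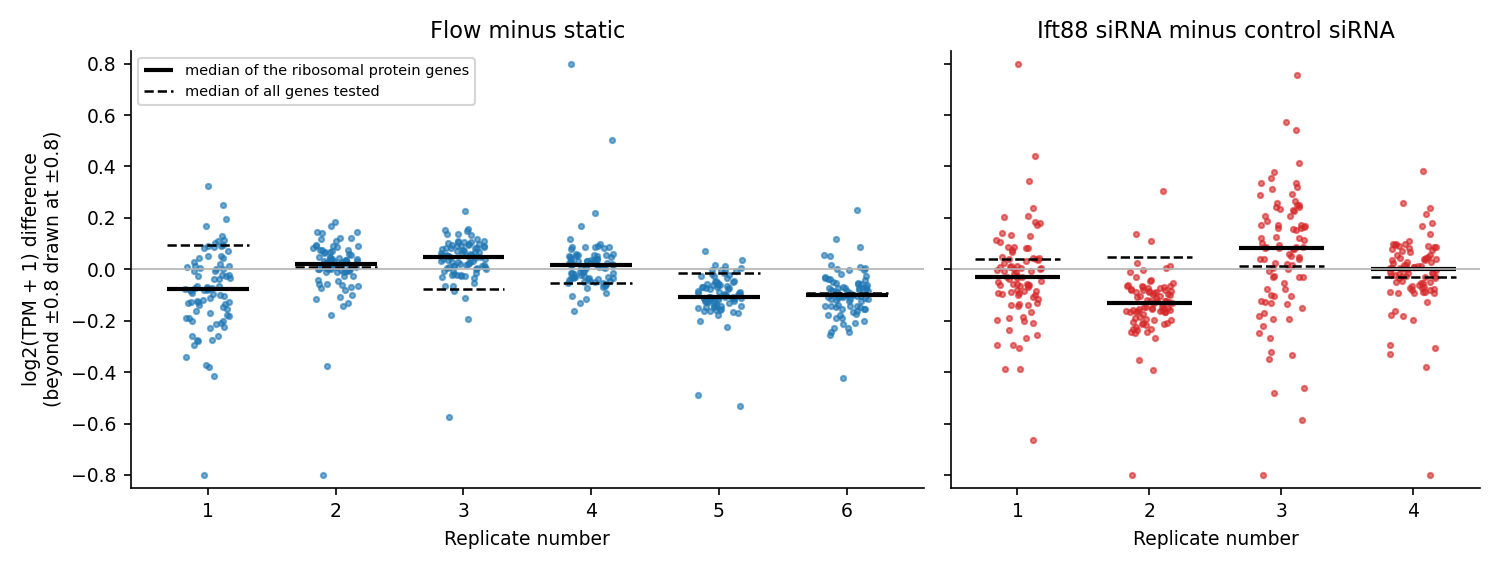
Difference in log2(TPM + 1) between same-numbered libraries (y axis; values beyond 0.8 in either direction are drawn at 0.8) for each ribosomal protein gene (points), by replicate number (x axis). Solid bars are medians of the ribosomal protein genes and dashed bars medians of all genes tested; in the flow experiment most points lie below 0 in numbers 1, 5 and 6 and above 0 in 2, 3 and 4, and in the siRNA experiment the points of number 3 spread most widely.

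Genes linked to ribosomal protein expression gave the following counts under flow, all with 0 members of a list past an adjusted p under 0.05. Of the ribosomal proteins with other names, Fau gave a log2 fold change of -0.05 and Rack1 one of 0.01. Of the 17 other TOP mRNAs, which encode mainly elongation and initiation factors, 6 had higher and 11 lower means, with a median of -0.01. The ends of the order were Eif4b (-0.11), Eef2 (-0.08), Vim (0.19) and Eef1d (0.05). Of the 32 ribosome biogenesis genes, which serve rRNA transcription, processing and subunit assembly, 30 had higher means under flow (as did 38.8% of all genes tested) and 2 lower, with a median of 0.07 and 0 at an unadjusted p under 0.05. Nop58 (0.17) and Nhp2 (0.15), both of small nucleolar ribonucleoproteins, and Pes1 (-0.01) and Ubtf (-0.01) stood at the ends.

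Among the regulators, Myc, the transcription factor that drives ribosome biogenesis, stood at 180 TPM ± 55.4 (SD) under flow and 88.9 ± 8.35 without it, with a difference of 0.94 ± 0.20 on the log2 scale (SE; limma adjusted p 0.0966, with the replicate block 0.0190), which is past the threshold only with the block. The rest of the 18 tested genes of TOP and S6 control included Rheb (0.09), Ddit4 (-0.21) and Rps6ka1 (-0.14), and their median was -0.01. Among the 10 p53 axis genes, Cdkn1a (0.32 ± 0.10, SE) and Mdm2 (0.29 ± 0.08) had the highest and Sesn1 (-0.36 ± 0.23) and Bbc3 (-0.13 ± 0.11) the lowest values, and the list had a median of -0.0028. None of these 4 passed the adjusted threshold, with or without the block. The 78 mitochondrial ribosomal protein genes had a median of -0.01, with Mrpl3 (0.19), Mrps18a (0.10), Mrpl49 (-0.21) and Mrpl44 (-0.16) at the ends, and the 74 nuclear respiratory chain genes one of -0.05, with Uqcrc1 (0.08), Atp5g1 (0.05), Cox7a1 (-0.60) and Ndufv3 (-0.30).

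In the siRNA experiment the ribosomal protein share was 5.4, 5.56, 5.85 and 6.34% of TPM in Ift88 siRNA replicates 1 to 4 and 5.67, 6.05, 5.90 and 6.31% in control siRNA replicates 1 to 4. The means were 5.79% ± 0.416 and 5.98% ± 0.268 (SD, n = 4), and the groups overlapped. The large subunit genes gave 3.55% ± 0.239 and 3.61% ± 0.181, and the small subunit genes 2.24% ± 0.177 and 2.37% ± 0.102 (Ift88 and control siRNA, SD, n = 4). The highest members were Rplp0 (3200 TPM), Rpl41 (2577 TPM), Rps14 (2257 TPM), Rps12 (2082 TPM) and Rpl13a (1902 TPM). The lowest were Rps27rt (1.21 TPM), Rpl39l (1.75 TPM), Rps23rg1 (3.29 TPM), Rpl9-ps6 (68.9 TPM) and Rps18-ps6 (91.3 TPM), all of them copies or paralogues.

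After Ift88 siRNA a group of ribosomal protein genes had lower values, but none passed the adjusted threshold. In limma, 0 of the 87 members had an adjusted p under 0.05, where 51 of the 11209 genes tested were higher (0.455%) and 20 lower (0.178%), 25 of them past 1.5-fold (0.223%). At an unadjusted p under 0.05, 11 members were lower (12.6% of members, beside 4.91% of all genes) and 1 was higher (1.15%, beside 9.02%). The 1 higher was Rps18-ps6, and the lower ones include Rps27rt, which is listed at 0 in all Ift88 siRNA libraries and is given no fold change here. In 7 members (8.05%) every Ift88 siRNA library lay below every control siRNA library, beside 2.79% of all genes; in 0 members every one lay above, beside 5.79%. The replicate block again gave 0 members (1.55% of all genes). The median log2 fold change of the members was -0.02, beside 0.02 for all genes tested, with 53 of 87 members below 0, and 52 of 87 (59.8%) had an absolute log2 fold change under 0.1, beside 51.7% of all genes. The median was above 0 without Ift88 siRNA replicate 1 (0.00798), Ift88 siRNA replicate 2 (0.00126) or control siRNA replicate 4 (0.0189), so its sign is not firm. Ift88 siRNA libraries also had more genes above 0 TPM (15713 to 16682) than control siRNA libraries (15292 to 15382), and the part of this in the values was not tested.

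The 7 members without overlap were Rpsa, Rps25, Rps10, Rpl5, Rpl13a, Rpl28 and Rpl30, from both subunits. Rps25, a small subunit protein known for its part in initiation at viral internal ribosome entry sites, stood at 1113, 1136, 1247 and 1269 TPM in Ift88 siRNA replicates 1 to 4 and at 1457, 1292, 1870 and 1420 TPM in control siRNA replicates 1 to 4. All 4 values with Ift88 siRNA were below all 4 controls, and control replicate 3 was the highest by far. Its log2 fold change was -0.33 ± 0.10 (SE; limma adjusted p 0.155), and -0.22 without control replicate 3.

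Rpsa stood at 290, 323, 330 and 306 TPM with Ift88 siRNA and at 349, 339, 397 and 375 TPM in the controls. The groups were separated by a narrow gap, with a log2 fold change of -0.23 ± 0.07 (SE; limma adjusted p 0.148). Rpl28, of the large subunit, stood at 323, 343, 346 and 314 TPM and at 367, 362, 392 and 409 TPM, which gave -0.21 ± 0.06 on the log2 scale (SE; limma adjusted p 0.147), the smallest adjusted p among the members.

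Rpl13a, a large subunit protein that also represses translation of certain inflammatory mRNAs, stood at 1609, 1711, 1836 and 1879 TPM with Ift88 siRNA and at 1988, 1890, 2298 and 2003 TPM with control siRNA (log2 fold change -0.22 ± 0.07, SE). Rpl5, one of the Mdm2 binders, stood at 1096, 1104, 1072 and 1107 TPM and at 1200, 1174, 1350 and 1176 TPM (-0.16 ± 0.06). Its values with Ift88 siRNA were close together, and control replicate 3 again lay above the other controls. The other Mdm2 binders gave -0.01 ± 0.08 (Rpl11) and 0.00043 ± 0.07 (Rpl23), with overlapping groups. Rps10 (-0.16 ± 0.06) and Rpl30 (-0.14 ± 0.05) completed the 7.

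Next to these stood members with large differences but overlapping groups. Rps12, a small subunit protein, had the largest difference among the core members. It stood at 1530, 1664, 1768 and 2033 TPM with Ift88 siRNA and at 2425, 1824, 3305 and 2109 TPM in the controls, and its log2 fold change was -0.44 ± 0.15 (SE; limma adjusted p 0.216). This value rests in part on control replicate 3, without which it was -0.28. Of the 31-base stretches of Rps12 transcripts, 69.3% also occur in another annotated protein-coding gene, Rps12-ps3, so reads can be shared between them. Rps27a stood at 688, 679, 729 and 768 TPM with Ift88 siRNA and at 820, 756, 929 and 873 TPM with control siRNA (log2 fold change -0.24 ± 0.07, SE; limma adjusted p 0.161).

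**Figure D4:**
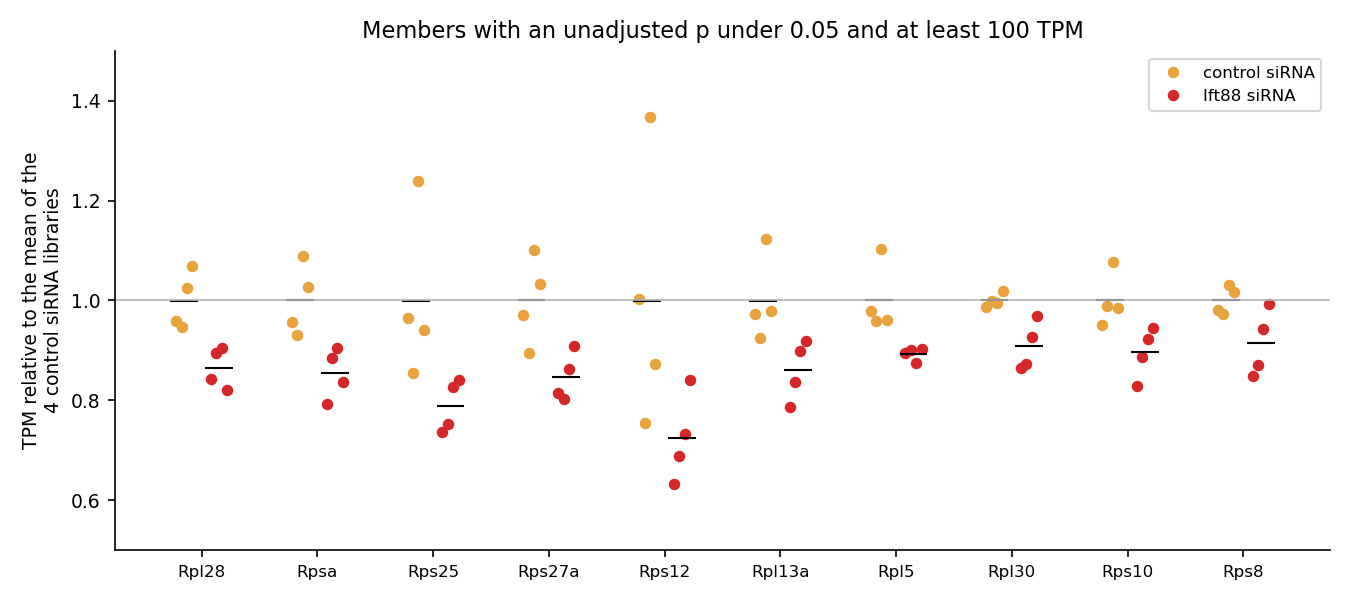
TPM of 10 ribosomal protein genes relative to the mean of the 4 control siRNA libraries (y axis, from 0.5), in control siRNA and Ift88 siRNA libraries (points, n = 4 each; bars are means). The genes on the x axis are those with an unadjusted p under 0.05 and a mean of at least 100 TPM; all 10 are lower with Ift88 siRNA, and control replicate 3 is the highest point of Rps25 and Rps12.

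In the other direction, the largest values were those of Rps18-ps6 (0.32 ± 0.13, SE), a processed copy of Rps18, Rps28 (0.21 ± 0.11), Rpl9-ps6 (0.21 ± 0.20), Rps23rg1 (0.19 ± 0.15) and Rpl39l (0.17 ± 0.32), none past the test and all with overlapping groups. The stalk genes differed in sign: Rplp0 stood at 3344 TPM ± 164 (SD) with Ift88 siRNA and 3055 ± 385 with control siRNA, Rplp2 at 600 ± 57.5 and 545 ± 15.04, and Rplp1 at 1459 ± 165 and 1671 ± 274. Rplp1 shares 72.5% of its 31-base stretches with the protein-coding gene model Gm10073. Rps6 was near equal, with 949 TPM ± 48.9 and 975 ± 77.5. The 95% interval lay within 1.5-fold for 82 of the 87 members, beside 90.0% of all genes tested. The 5 outside 1.5-fold were Rps27rt, Rps12, Rps18-ps6, Rpl9-ps6 and Rpl39l.

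The related lists in the siRNA experiment had 0 genes past an adjusted p under 0.05. Fau had a log2 fold change of -0.10, and Rack1, the small subunit scaffold for kinases, one of -0.18. The 17 other TOP mRNAs had a median of -0.04, with 4 lower and 1 higher at an unadjusted p under 0.05; Eef1b2, of the elongation factor that reloads eEF1A, was the lowest (384 TPM ± 19.7 against 514 ± 92.3, SD; -0.40 ± 0.10, SE; limma adjusted p 0.0978), followed by Tpt1 (-0.23), while Eif3h (0.13) and Pabpc1 (0.11) were the highest. Of the 32 ribosome biogenesis genes, 28 had lower means (as did 45.0% of all genes tested), with a median of -0.07, Noc2l (-0.38) and Ncl (-0.21) at one end and Utp15 (0.07) and Bysl (0.06) at the other. The TOP and S6 control genes had a median of 0.02 (Sesn2 0.31, Maf1 0.19, Eif4ebp2 -0.18, Rps6ka3 -0.17) and the p53 axis genes one of 0.01 (Sesn1 0.42, Bbc3 0.13, Mdm2 -0.08, Cdkn1a -0.07). The 78 mitochondrial ribosomal protein genes had a median of 0.03 (Mrpl52 0.23, Mrps34 0.21, Mrpl9 -0.14, Mrps5 -0.10) and the 75 nuclear respiratory chain genes one of 0.04 (Cox7a1 0.41, Ndufs4 0.26, Ndufb5 -0.20, Uqcrq -0.12).

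Between the experiments the ribosomal protein genes stood at very different levels. The tables were scaled separately and the experiments differ in transfection and in every library, so these values are set side by side without a test, and the treatment and the experiment cannot be told apart. For calcium imaging after siRNA, the study's methods also give a lower seeding density and a shorter low-serum step than for the flow cells. They give no separate schedule for the RNA-seq after siRNA. The 84 genes present in both tables summed to 18.5% of TPM in the flow libraries and to 5.97% in the control siRNA libraries, which the study describes as also under flow. The median ratio of control siRNA over flow was 0.292 for the 84 genes, beside 0.992 for the 10863 genes at 1 TPM or more in both groups. In 78 of the 84 every control siRNA library lay below every flow library, and 82 had a ratio under 1; over all genes 3338 were lower and 3308 higher without overlap.

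The other TOP mRNAs went the same way and the remaining lists did not. The median ratio was 0.439 for the 17 other TOP mRNAs, all of them under 1. It was 1.02 for ribosome biogenesis genes, 1.22 for mitochondrial ribosomal protein genes and 1.14 for nuclear respiratory chain genes, 1.36 for TOP and S6 control genes and 1.13 for p53 axis genes. The nuclear respiratory chain genes held 3.13% of TPM in the flow libraries and 3.30% in the control siRNA libraries. Markers also differed between the tables: the tight junction gene Cldn4 ranged from 17.5 to 166 TPM in the flow experiment and from 2720 to 3179 TPM in the siRNA experiment, and Cd68, a lysosomal protein used as a macrophage marker, from 10.1 to 64.0 and from 87.1 to 98.9 TPM. Their part in the ribosomal protein levels was not tested.

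The members were not lower by a common factor. Among the core subunits, leaving out copies, paralogues and Rps19bp1, the ratio ran from 0.108 for Rpl39, a small large-subunit protein in the peptide exit tunnel, and 0.11 for Rps28 to 0.706 for Rpl35 and 0.858 for Rps25. Of the Mdm2 binders, Rpl11 (0.138) and Rpl23 (0.162) were near the low end and Rpl5 (0.579) near the high end. In this order they stood at 2307, 1615 and 2117 TPM in the flow libraries and at 318, 261 and 1225 TPM in the control siRNA libraries, so Rpl5 passed Rpl11. Among the 84 genes, Rps27l (0.977), Rpl7l1 (0.875) and the partner gene Rps19bp1 (1.81) had the highest ratios outside the copies. Of these, Rpl7l1 and Rps19bp1 are the genes with the short pyrimidine runs printed earlier, whereas Rps27l has a run of 9. Core subunits with runs under 8 bases had lower ratios, from 0.11 for Rps28 (4 bases) to 0.535 for Rplp0 (7 bases). Whether run length and ratio are related was not tested. Across the 84 genes the order of levels was partly kept, with a Spearman rho of 0.752 over genes, which share libraries and are not independent.

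**Figure D5:**
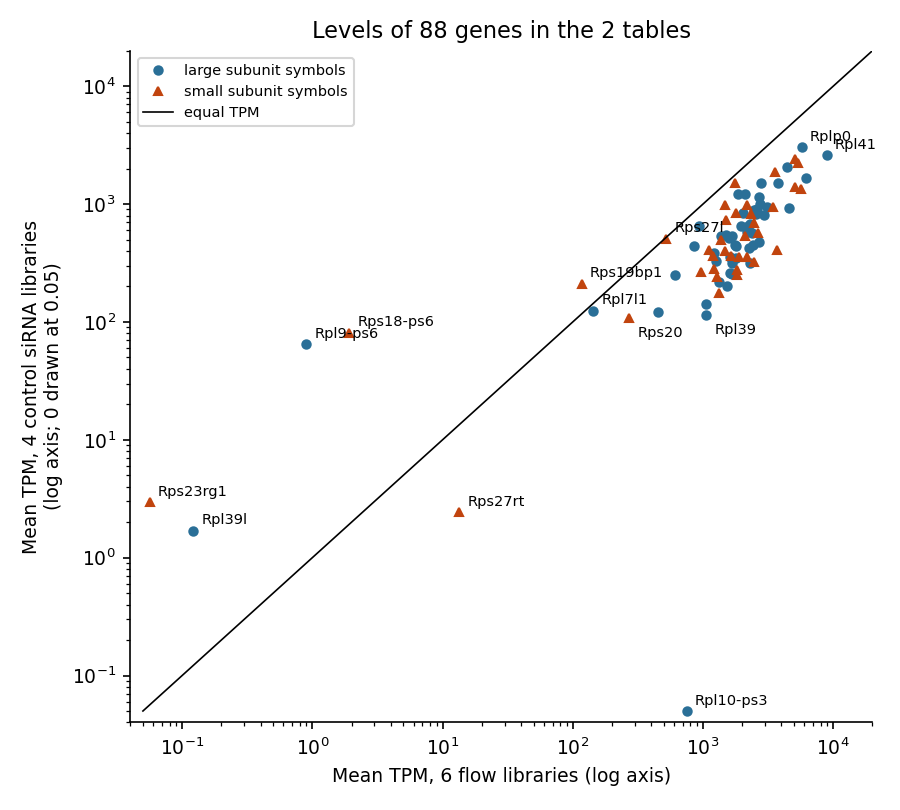
Mean TPM of 88 ribosomal protein genes in the 6 flow libraries (x axis) and in the 4 control siRNA libraries (y axis), both on log axes, with 0 drawn at 0.05. Circles are large and triangles small subunit symbols, and the line marks equal TPM; most genes lie below it, Rps27l lies close to it, and Rpl10-ps3 (750 TPM against 0), Rps18-ps6 and Rpl9-ps6 lie far from it.

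The paralogues Rps27l, Rpl22l1, Rpl36al and Rpl7l1 stood at a higher percentage of their parents in the siRNA experiment, whereas Rps27rt and Rpl3l did not. Rps27l was at 15.1% ± 2.55 of the TPM of Rps27 in flow and 14.2% ± 1.71 in static libraries, and at 51.3% ± 2.34 with Ift88 siRNA and 54.3% ± 3.66 with control siRNA (SD). Rpl22l1 was at 29.4% ± 2.16 and 31.1% ± 3.26 of Rpl22, against 58.8% ± 5.05 and 60.0% ± 2.59. Rpl36al, an intronless copy of Rpl36a that is expressed as a ribosomal protein, was at 36.6% ± 5.13 and 34.1% ± 4.32 of it, against 96.1% ± 3.11 and 98.6% ± 11.97. Rpl7l1 was at 8.91% ± 1.67 and 7.98% ± 0.338 of Rpl7, against 26.4% ± 1.45 and 23.7% ± 2.01. Within each experiment the ranges of the 2 groups overlapped for Rps27l, Rpl22l1 and Rpl36al, whereas for Rpl7l1 every Ift88 siRNA library (25.2 to 28.4%) lay above every control siRNA library (20.7 to 25.04%). Rpl39l, whose expression is best known from the testis, was near the detection limit, listed at 0 in 4 of 6 flow and 5 of 6 static libraries and between 0.299 and 3.59 TPM in the siRNA experiment, and the muscle paralogue Rpl3l did not exceed 1.24 TPM in any library.

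Several low or erratic members are processed copies whose coding sequence is nearly that of the parent. In GENCODE M21 (GRCm38), an older annotation than that of the deposited tables, the 252 coding bases of Rps27rt (chromosome 9, 114982366 to 114982739) are identical to those of Rps27, and the 642 coding bases of Rpl10-ps3 (chromosome 9, 50344201 to 50344968) to those of Rpl10. Rpl9-ps6 (chromosome 19, 32465865 to 32466578) differs from Rpl9 by 1 of 576 coding bases (G266A, parent first, counted from the start codon) and Rps18-ps6 (chromosome 13, 97760072 to 97760632) from Rps18 by 4 of 456 (T186C, A337C, G371A and G431A). The stretches around the first difference of each pair show how little separates their reads, with the differing base in capitals.
Rpl9, coding bases 251 to 280: tcacgctgggcttccGatacaagatgcggt
Rpl9-ps6, coding bases 251 to 280: tcacgctgggcttccAatacaagatgcggt
Rps18, coding bases 171 to 200: agaactcacggaggaTgaggtggagcgagt
Rps18-ps6, coding bases 171 to 200: agaactcacggaggaCgaggtggagcgagt

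The listed levels of these copies differed widely between experiments, as did those of Rps23rg1 (0.076 and 3.29 TPM in the flow and siRNA tables) and Rpl39l (0.076 and 1.75 TPM). Rpl10-ps3 was listed at 608 to 841 TPM under flow and 560 to 852 TPM without it, 88.3% ± 11.02 and 88.4% ± 11.98 (SD) of Rpl10, and at 0 in all 8 siRNA libraries. Rps18-ps6 was at 1.501 to 2.76 TPM under flow and 64.7 to 125 TPM in the siRNA libraries, and Rpl9-ps6 at 0 to 2.59 TPM and 38.5 to 93.1 TPM. Rps27rt was listed at 14.0, 0, 11.2, 17.5, 15.2 and 22.1 TPM in flow replicates 1 to 6, at 31.9, 30.6, 13.0, 7.91, 21.7 and 21.9 TPM in static replicates 1 to 6, at 0 in all 4 Ift88 siRNA libraries, and at 0, 5.04, 0 and 4.64 TPM in control siRNA replicates 1 to 4. Its groups overlapped in both comparisons.

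Of the 31-base stretches of each copy, 96.5% (Rpl10-ps3), 92.4% (Rps27rt), 92.3% (Rpl9-ps6) and 74.6% (Rps18-ps6) also occur in other protein-coding genes, so the split of reads between copy and parent is uncertain and the levels of both are to be read with that limit. For 63 of the 88 members this share was under 5%, and for 9 over 50%. Counting pseudogenes and other annotated genes as well, the median member shared 44.5% of its stretches, and 32 members shared over 50%.

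Genes outside the class whose level followed the summed ribosomal protein TPM most closely were listed as a description. Over the 12 flow and static libraries, among 8277 genes averaging 10 TPM or more, these were Mrps33 (Pearson r = 0.925), Naca (0.925), Pabpc1 (0.915), Rack1 (0.914) and Mrps9 (0.901). Naca and Pabpc1 are on the list of other TOP mRNAs, and the low share of replicates 5 and 6 enters every one of these values. Over the 8 siRNA libraries, among 7730 genes, the leading genes were Uqcr10 (0.972), Sft2d1 (0.964), Micos10 (0.959), Ndufb7 (0.946) and Lgals1 (0.944), so no gene was on both lists of 5. Fau followed the class in both sets (0.858 and 0.838), while Rack1 had 0.914 and 0.374.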

How the data were processed

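RNA-seq libraries of DC2 cells were compared as flow against static (6 and 6) and Ift88 siRNA against control siRNA (4 and 4). The authors deposited TPM, 1 table per experiment, each library summing to 1000000. Per the study's methods, poly(A) mRNA libraries were sequenced as paired ends, trimmed, quantified with kallisto against the Ensembl mouse transcriptome and summarised to genes; the submitters' processing notes name kallisto 0.46.2 and fastp 0.20.0. TPM are not counts, so no count test was run. Here, log2(TPM + 1) of genes averaging 1 TPM or more was compared with limma 3.58.1 in R 4.3.3 (eBayes with trend), adjusted by Benjamini-Hochberg over all genes tested, with a threshold of 0.05; the added 1 makes fold changes of low genes too small. Intervals are 95% limma intervals. The procedure was tested on simulated data with known changes.

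Flow and static libraries of the same number deviated together from their group means (correlations 0.294, 0.463, 0.425, 0.468, 0.662 and 0.600), so the replicate block was taken as a pairing there, a hint from the data and not from the labels. The study's methods speak of experimental replicates for the flow and static cells. Nothing states that libraries came from separate cultures, so p-values measure the spread between libraries, which may be technical. The members, lists, tests and naming rule were chosen with earlier results of these data known. Named were the 5 members with the largest fold change in each direction, the 5 highest and 5 lowest by level, and members by role; the remaining siRNA members without overlap were named after their values were seen. Start sequences came from RefSeq (GRCm38.p6), and transcripts and coding bases from GENCODE M21. Some genes of these lists are not reported here. Figures used matplotlib 3.10.9.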

Additional observations from a re-analysis of the deposited data

Results flagged for a closer look

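In 7 of 132 group values examined, 1 library stood far from the other 3 of its group by the ratio of gap to range; chance alone marks about 1 in 20 such groups. Control siRNA replicate 3 was concerned in 3 of them: Rpl5 at 1350 TPM (others 1174 to 1200), Rplp1 at 2078 TPM (others 1480 to 1568) and Rplp2 at 522.8 TPM (others 550 to 554). Ift88 siRNA replicate 4 was the high library for Rpl11 (352.2 TPM; others 301 to 308) and Rps14 (2723 TPM; others 2090 to 2156). Rpl22 was at 218.4 TPM in control siRNA replicate 4 (others 196 to 199), and Rpl7 at 501.2 TPM in control siRNA replicate 1 (others 533 to 538). None of the flow or static groups held such a library, for the summed share or for a named gene.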

How the results depend on the processing

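The number of ribosomal protein genes past the adjusted p-value, with or without the 1.5-fold limit, was 0 in both comparisons under every alternative run: another pseudocount, other TPM minimums, median-of-ratios scaling, rescaling without the class, library weights, the replicate block and each library left out. The smallest adjusted p in limma was 0.195 (library weights) in the flow comparison and 0.0536 (replicate block) in the siRNA comparison, where 9 to 20 members had an unadjusted p under 0.05. The siRNA libraries share only numbers (correlations 0.0464, 0.00276, 0.259 and 0.176), so their block is no pairing; it took the genes past the threshold from 71 to 174, Eef1b2 (adjusted p 0.0420) among them. In the flow comparison the block took them from 12 to 73, and changed no call on a member. The median log2 fold change under flow ranged from -0.0686 to 0.00702 with each library left out, moved to 0.0446 with flow replicate 6 counted as static, and was -0.0362 with the block as without it. It was -0.00148 in replicates 1 to 4 alone, a choice made after the data were seen, -0.00724 in replicates 1 to 3 and -0.0639 in replicates 4 to 6. In the siRNA comparison it ranged from -0.0614 to 0.0189 with each library left out and was -0.017 with the block. Absolute read depth is not known from TPM.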
